A study of Mus musculus with 2 samples.

Results

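HOX genes encode homeodomain transcription factors, and the 35 members described here are every gene of the mouse HoxA, HoxB, HoxC and HoxD clusters that the expression table lists under a symbol of the form Hox, cluster letter, number. They are 35 of the 27874 gene symbols in that table, and 4 further HOX genes (Hoxb1, Hoxc11, Hoxc12 and Hoxd1) were not analysed here. Polyadenylated RNA was sequenced from the lamina propria of the colon, the connective tissue layer that lies beneath the gut epithelium, in C57BL/6J mice. There were 2 libraries. The first was labelled Control with no allele named, and the second K14/hyal1. K14 is the usual short name of keratin 14, whose promoter is active in basal keratinocytes of the skin, and Hyal1 encodes a hyaluronidase, which cuts the sugar polymer hyaluronan of the tissue matrix. The sources used here give neither the age of the mice, nor the number behind a library, nor the construct or line used. With 1 library per genotype, every difference below is between 2 libraries and not between 2 genotypes, and no test was possible.

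HOX genes lie in 4 clusters and carry a paralogue number that gives their place within a cluster. Along the body axis, low numbers are used in anterior tissues and high numbers in posterior tissues, an arrangement called collinearity, and adult tissues keep much of this pattern as a record of where they came from. In the mouse the genes with high numbers, above all the paralogue 13 genes, pattern the hindgut, from which the distal colon forms. Polycomb proteins hold HOX genes silent in tissues that do not use them, Trithorax proteins keep them active, and PBX and MEIS proteins bind DNA together with HOX proteins.

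The levels were read as CPM, reads scaled to a common library total, since the deposited table does not name its unit. The table holds only part of that total, 416434 CPM in Control and 475975 in K14/hyal1, and this unequal coverage enters every ratio below. A single read was worth 0.0164 CPM in Control against 0.0345 in K14/hyal1, so the Control library was the deeper, with 25446310 estimated reads in the table against 13812956. The floor used here is 3 reads, or 0.0491 and 0.103 CPM. Brackets hold 95% intervals, exact Poisson or Clopper-Pearson, which cover counting error only, since there is 1 library per genotype. Reads are estimates and not independent molecules, so the intervals may be too narrow even for counting error. Levels of different genes are compared only as CPM per kilobase of the longest annotated transcript. The median gene past the level filter, a mean of at least 2.31 CPM over both libraries, was 1.18-fold higher in K14/hyal1, and HOX ratios are read against that value. On the scale log2((K14/hyal1 + 1)/(Control + 1)) that median was 0.21. Genes are counted as 2-fold higher or lower on this scale, which understates differences of low genes, while each fold printed divides one CPM by the other.

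Marker genes show what the material held and where the libraries stood apart. Epithelium markers were abundant in both, with all 9 past the filter and a summed level of 3662 CPM in Control against 3903 in K14/hyal1, so neither library was connective tissue alone. The 9 smooth muscle markers summed to 3174 and 3717 CPM. The 10 fibroblast markers summed to 405 CPM in Control against 1026 in K14/hyal1. The 9 endothelium markers summed to 49.0 and 125 CPM, and the 8 immune markers to 31.4 and 96.8 CPM. Of those past the filter, 8 of 10, 4 of 9 and 3 of 5 were at least 2-fold higher, against 3.75% of all genes past it. No marker of these lists was at 0 in both libraries, and the T cell gene Cd3e was at the 3-read floor in each. The 8 neuron and glia markers summed to 20.8 and 18 CPM. Secretory genes of the kind made by the sublingual salivary gland, 7 of them in the table, summed to 1489 CPM in Control and to 0.172 CPM in K14/hyal1, where Dcpp1, Dcpp3 and Ltf had 0 reads. In bulk RNA, fewer cells of a type and less RNA per cell cannot be told apart. The part of these marker differences in the HOX values was not tested.

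The transcription start regions of 6 HOX genes are shown because the results turn on them: Hoxa9 and Hoxa11, which were higher in the K14/hyal1 library; Hoxd10 and Hoxd11, which were lower; Hoxd13, the most abundant HOX transcript per kilobase among those with an entry; and Hoxb8, which was close to the read floor. Each runs 5′ to 3′ on the strand of the gene, from 250 bases before to 50 bases after a start annotated by RefSeq on GRCm38.p6. Capitals mark matches, on either strand, to 3 short motifs: TTTATG, a core of sites bound by CDX proteins; TTTACG, a core of sites bound by posterior HOX proteins; and TATAAA, the TATA box. The Hoxa9 window is chr6:52227321-52227620 and the Hoxa11 window chr6:52245761-52246060, both on the minus strand. On the plus strand lie Hoxd10 (chr2:74691641-74691940), Hoxd11 (chr2:74679308-74679607), Hoxd13 (chr2:74667975-74668274) and Hoxb8 (chr11:96281655-96281954).
Hoxa9: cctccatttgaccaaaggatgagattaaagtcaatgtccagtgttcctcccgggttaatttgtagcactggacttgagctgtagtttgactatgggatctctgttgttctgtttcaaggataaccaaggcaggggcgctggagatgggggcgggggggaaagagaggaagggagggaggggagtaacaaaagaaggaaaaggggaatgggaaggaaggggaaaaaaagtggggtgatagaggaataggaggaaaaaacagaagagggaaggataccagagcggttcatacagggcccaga
Hoxa11: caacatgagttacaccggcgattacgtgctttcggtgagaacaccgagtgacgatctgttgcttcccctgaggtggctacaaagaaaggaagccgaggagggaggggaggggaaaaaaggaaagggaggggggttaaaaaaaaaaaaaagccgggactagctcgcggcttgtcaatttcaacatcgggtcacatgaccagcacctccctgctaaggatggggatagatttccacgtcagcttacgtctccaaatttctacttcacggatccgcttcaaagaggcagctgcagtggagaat
Hoxd10: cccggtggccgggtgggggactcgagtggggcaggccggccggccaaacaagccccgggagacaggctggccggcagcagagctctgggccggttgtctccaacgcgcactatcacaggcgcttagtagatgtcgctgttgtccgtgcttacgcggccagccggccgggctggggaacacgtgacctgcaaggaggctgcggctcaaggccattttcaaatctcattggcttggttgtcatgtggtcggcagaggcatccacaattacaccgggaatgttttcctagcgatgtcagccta
Hoxd11: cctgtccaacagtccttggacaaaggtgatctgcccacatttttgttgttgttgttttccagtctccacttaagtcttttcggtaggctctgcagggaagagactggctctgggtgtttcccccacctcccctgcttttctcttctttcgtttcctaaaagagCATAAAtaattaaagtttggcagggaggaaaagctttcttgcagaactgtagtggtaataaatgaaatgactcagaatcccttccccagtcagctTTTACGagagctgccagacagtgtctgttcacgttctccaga
Hoxd13: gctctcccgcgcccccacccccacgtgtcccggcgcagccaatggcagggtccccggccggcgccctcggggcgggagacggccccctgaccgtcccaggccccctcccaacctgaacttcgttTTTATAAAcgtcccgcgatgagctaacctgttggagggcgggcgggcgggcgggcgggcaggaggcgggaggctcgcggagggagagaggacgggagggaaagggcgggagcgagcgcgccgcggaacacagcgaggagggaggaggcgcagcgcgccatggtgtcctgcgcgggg
Hoxb8: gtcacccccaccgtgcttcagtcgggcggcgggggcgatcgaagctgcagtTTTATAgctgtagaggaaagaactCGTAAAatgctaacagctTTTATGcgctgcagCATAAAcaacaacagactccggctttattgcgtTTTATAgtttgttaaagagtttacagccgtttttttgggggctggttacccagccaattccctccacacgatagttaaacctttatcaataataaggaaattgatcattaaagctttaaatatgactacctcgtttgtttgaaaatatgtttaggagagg

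Hoxa9, Hoxa11 and Hoxd10 held none of the 3 motifs in these windows. The Hoxd11 window held 1 CDX-type match 87 bases before the start and 1 posterior HOX-type match just after it, while a second RefSeq start of Hoxd11, at chr2:74682073-74682372, held none. Hoxd13 held 2 overlapping TATA matches on opposite strands. Hoxb8 held 2 CDX-type, 1 posterior HOX-type and 2 TATA matches, more than any other HOX window, so it is not typical of them. Of the 35 members, 20 had a RefSeq entry, with 22 windows between them. The CDX-type motif was in 5 of the 22 windows (22.7%) and in 11.9% of all 32851 windows of the same length. The posterior HOX-type motif was in 2 (9.09%) against 3.03%, and the TATA motif in 4 (18.2%) against 13.6%. CG pairs numbered 37 in the Hoxd13 window, 22 in Hoxd10, 15 in Hoxa11, 13 in Hoxb8, and 4 in both the Hoxa9 and the Hoxd11 windows shown, against medians of 14.5 over the HOX windows and 7 over all windows. A match is a run of letters and not a shown binding site.

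Among HOX transcripts, those of paralogue 13 genes made up most of the level in both libraries, with Hoxb13 far ahead of the rest. All HOX genes together held only 0.0907% of the table total in Control and 0.0949% in K14/hyal1. High numbers were not always high in level: in Control, Hoxa11 (1.24) and Hoxd12 (2.0) lay below Hoxa3 (3.89) in CPM per kilobase. Per kilobase, paralogue 13 genes held 60.9% of all HOX transcript level in Control and 67.0% in K14/hyal1. In CPM per kilobase, Hoxb13 stood at 70.6 in Control and 97.5 in K14/hyal1, Hoxd13 at 24.5 and 25.8, Hoxd11 at 19.7 and 14.8, and Hoxa13 at 12.4 and 14.1, the same first 4 places in each library. These places depend on the transcript length used. The shortest annotated transcript gives 38.6 and 43.9 CPM per kilobase for Hoxa13, and 16.7 and 29.6 for Hoxa9. By that measure Hoxa9 lay above Hoxd13 and Hoxd11 in K14/hyal1. Level and paralogue number went together along HoxD (Spearman's rho 0.93 in each library, 8 genes) and HoxA (0.73 and 0.74, 11 genes), and less so along HoxB (0.37 and 0.23, 9 genes). These correlations are descriptions over genes of 1 library. From Hoxa3 to Hoxa10 the Control levels lay between 3.20 (Hoxa6) and 5.09 (Hoxa10) CPM per kilobase, except for Hoxa4 with 0.741. That narrow range holds for the longest transcripts only. On the shortest, Hoxa7, Hoxa9 and Hoxa10 had 13.9, 16.7 and 9.08 in Control.

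**Figure D1:**
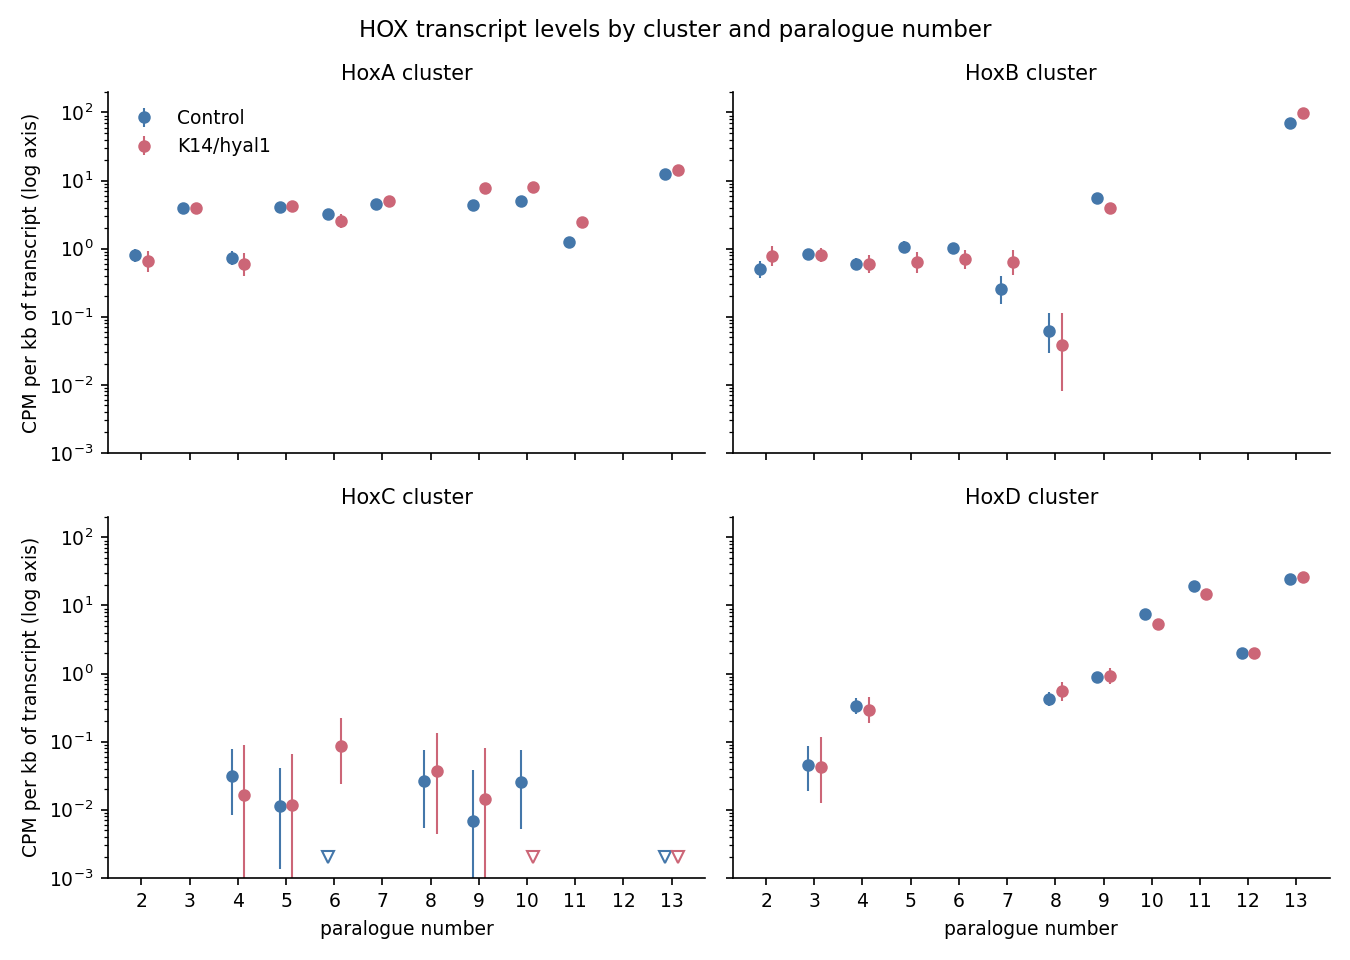
Level of HOX genes in CPM per kilobase of its longest transcript (log axis) against its paralogue number, in 4 panels for the 4 clusters. Blue points are the Control library and red points the K14/hyal1 library, bars are 95% counting intervals, and open triangles at the foot of a panel mark genes with 0 reads. Hoxb13 is the highest point in both libraries (70.6 and 97.5), HoxA and HoxD levels tend to be higher at higher numbers, and HoxC points lie near or below 0.1.

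By cluster, on the longest transcripts, HoxB held the largest share of HOX transcript level per kilobase, 45.6% in Control and 51.6% in K14/hyal1. Hoxb13 alone made up 70.6 of its 80.5 CPM per kilobase in Control and 97.5 of 106 in K14/hyal1. On the shortest annotated transcripts, the HoxA sum lay above that of HoxB in both libraries. By the longest, HoxD held 31.4% and 24.2%, HoxA 22.9% and 24.1%, and HoxC 0.0572% and 0.0813%. HoxC transcripts were thus near the limit of detection, with 13 estimated reads in Control and 9 in K14/hyal1 over all 7 genes. The clusters lie on different chromosomes (mm10 coordinates from GENCODE M21): HoxA at chr6:52155590-52260880 on the minus strand, HoxB at chr11:96194316-96354012, HoxC at chr15:102921103-103036852 and HoxD at chr2:74668310-74748442, these on the plus strand. Over the 35 genes the 2 libraries had much the same profile of log2 CPM, with a Pearson correlation of 0.966 and a Spearman correlation of 0.972 across genes, which are not independent replicates. Over all 13563 genes past the filter the values were 0.935 and 0.928, so a close profile was not particular to HOX genes. The 2 sets differ in their range of levels and in the pseudocount.

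No HOX gene differed by 2-fold between the libraries on the log2 scale. Of the 35 members, 15 passed the level filter (8 of 11 in HoxA, 3 of 9 in HoxB, 0 of 7 in HoxC and 4 of 8 in HoxD). Among these 15, 0 were at least 2-fold higher in K14/hyal1 and 0 at least 2-fold lower, against 3.75% and 1.54% of all 13563 genes that passed. At 1.5-fold, 3 were higher (Hoxa9, Hoxa10 and Hoxa11; 17.7% of all genes) and 0 were lower (4.89% of all genes), so that the share of HOX genes past this smaller fold is close to the background. Their median log2 ratio was 0.02 beside 0.21 over all genes, and they ran from -0.49 to 0.79. The log2 ratio was above 0 for 8 and below 0 for 7 of the 15, that is, below 0 for 46.7% of them and for 30.4% of all genes. Counting intervals lay wholly above the ratio of the median gene for 4 genes and wholly below it for 6. The same count was not made over all genes, so it cannot be read as particular to HOX genes.

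**Figure D2:**
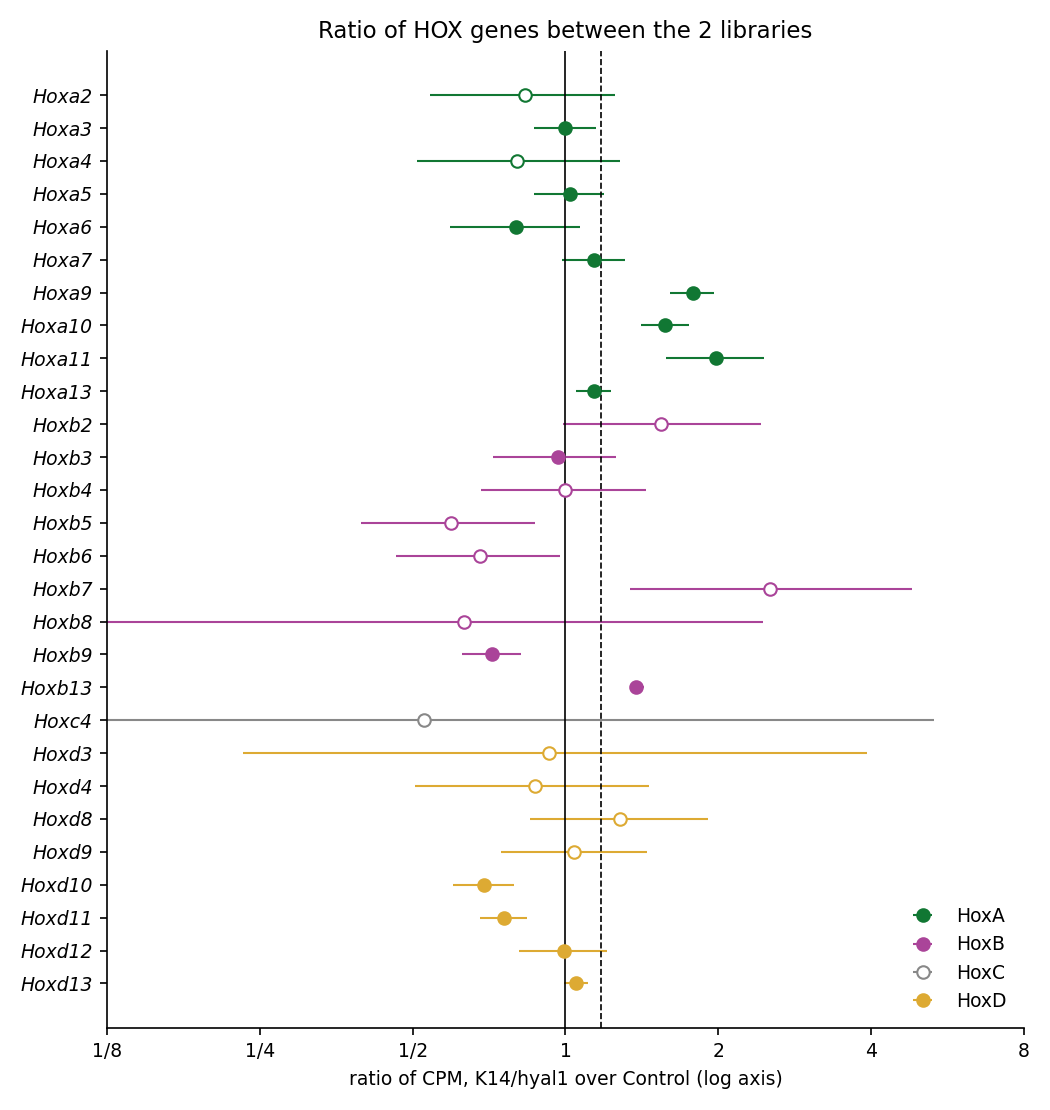
Ratio of CPM, K14/hyal1 over Control (log axis), for HOX genes with more than 3 reads in a library, in cluster order. Filled points passed the level filter and open points did not, bars are 95% counting intervals and run off the left edge for Hoxb8 and Hoxc4, the solid line marks a ratio of 1 and the dashed line the median gene at 1.18. Hoxc6, with 0 reads in Control, is not drawn. Hoxa9, Hoxa10 and Hoxa11 stand to the right of the dashed line, and Hoxb9, Hoxd10 and Hoxd11 to the left of the solid line.

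The genes numbered 9 to 11 differed in opposite directions in different clusters. The levels of HoxA paralogues 9 and 10 summed to 27.2 CPM in Control against 45.7 in K14/hyal1, a ratio of 1.68 (1.56 to 1.80). The same numbers summed to 15.7 and 11.5 CPM in HoxD, a ratio of 0.734 (0.646 to 0.831). In HoxB, Hoxb9 alone gave 0.716 (0.626 to 0.818). Summed over clusters, paralogues 9 and 10 had a ratio of 1.18 (1.11 to 1.25), the same as the median gene, although its members differ in direction. The split between clusters was picked out after the values were seen.

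Hoxa9, which maintains blood stem cells and patterns the posterior trunk, had 14.2 CPM in Control (867 estimated reads) and 25.2 CPM in K14/hyal1 (731 estimated reads). That was 1.78-fold higher in the K14/hyal1 library (1.61 to 1.96). Its neighbour Hoxa10, needed for the uterus and the lumbar vertebrae, had 13 and 20.5 CPM, 1.57-fold higher (1.41 to 1.75). Hoxa11, which acts in the forearm, kidney and uterus, had 2.84 and 5.62 CPM, 1.98-fold higher (1.58 to 2.46). All 3 lie side by side on chromosome 6, at chr6:52223100-52231089, chr6:52231197-52240854 and chr6:52242106-52245810. Their intervals do not reach the median gene's ratio of 1.18.

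Hoxd10, which patterns motor neurons of the hindlimb, had 13.8 CPM in Control against 9.56 in K14/hyal1, 1.44-fold lower (1.26 to 1.66). Hoxd11, the partner of Hoxa11 in the forearm and kidney, had 21.8 and 16.5 CPM, 1.32-fold lower (1.19 to 1.47). Hoxb9, which acts in the ribs and thoracic spinal cord, had 14.3 and 10.2 CPM, 1.40-fold lower (1.22 to 1.60). These genes lie at chr2:74691924-74695105, chr2:74679557-74687016 and chr11:96271457-96276595. Hoxd9, just under the filter, had 1.88 and 1.96 CPM, a ratio of 1.04 (0.746 to 1.45), an interval that also overlaps those of Hoxd10 and Hoxd11. The log2 ratios of Hoxa9, Hoxa10, Hoxa11, Hoxb9, Hoxd10 and Hoxd11 kept their sign under the 3 scalings, both trend corrections and the use of the most abundant transcript row.

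Among the genes numbered 12 and 13, Hoxb13 stood out by level and by ratio. Hoxb13, at chr11:96194316-96197447, is expressed in the distal gut and the prostate, and had 156 CPM in Control (9517 estimated reads) and 215 CPM in K14/hyal1 (6244 estimated reads). It was 1.38-fold higher in the K14/hyal1 library (1.34 to 1.43), or 1.17-fold above the median gene. Hoxd13, which shapes the digits and the anal sphincter, had 60.9 and 64.1 CPM, a ratio of 1.05 (0.995 to 1.11). That interval lay wholly below the median gene's 1.18. Hoxa13, required for the hindgut and the genital tract, had 29.7 and 33.7 CPM, a ratio of 1.14 (1.05 to 1.23), close to the median gene. Hoxd12, a limb gene, had 5.07 and 5.03 CPM, a ratio of 0.992 (0.809 to 1.21). The sign of the log2 ratio of Hoxa13 and Hoxd13 depended on the scaling, with values of -0.05 and -0.16 under median gene scaling, and that of Hoxd12 (-0.01) turned when the trend with GC content (0.04) or length (0.01) was taken off.

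The genes numbered 3 to 7 that passed the filter were at similar CPM in both libraries, with ratios under the median gene's 1.18. The intervals of Hoxa3 and Hoxa6 lay wholly below that value. Hoxa3, a gene of the thymus and parathyroid, had 10.1 CPM in each, a ratio of 0.999 (0.865 to 1.15). Hoxa5, which acts in the mesenchyme of the lung and stomach, had 7.76 and 7.89 CPM (1.02, 0.865 to 1.19), and Hoxa7, which patterns thoracic vertebrae, 8.96 and 10.2 CPM (1.14, 0.984 to 1.31). Hoxb3, which acts with Hoxa3 in the neck and hindbrain, had 2.69 and 2.60 CPM (0.965, 0.719 to 1.26). Hoxa6, another thoracic gene, had 2.80 and 2.24 CPM, a ratio of 0.8 (0.592 to 1.07). Of these 5, only Hoxa6 kept the sign of its log2 ratio under these alternatives, from -0.40 to -0.12. Members nearest the filter were Hoxa11, Hoxb3 and Hoxa6 inside it, with means of 4.23, 2.65 and 2.52 CPM, and Hoxd9, Hoxb6 and Hoxb5 outside it, with 1.92, 1.70 and 1.62 CPM.

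Another 15 members were under the filter but had more than 3 estimated reads in a library. Hoxb5, which acts in the neural crest cells that form the enteric nervous system, had 2.03 CPM in Control against 1.21 in K14/hyal1, a ratio of 0.594 (0.396 to 0.871). Its neighbour Hoxb6 had 2.03 and 1.38 CPM, a ratio of 0.679 (0.463 to 0.977). Hoxb7, between Hoxb6 and Hoxb8, was opposite, at 0.327 CPM in Control (20 estimated reads) and 0.827 CPM in K14/hyal1 (24 estimated reads). Its ratio of 2.53 (1.34 to 4.82) was the only plain ratio at or above 2 with reads over the floor and none at 0, and rests on those few reads. The 8 neuron and glia markers had a summed ratio of 0.867, and their part in the value of Hoxb5 was not tested.

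The other low members were spread over all clusters. Hoxa2, which patterns the hindbrain and the second pharyngeal arch, had 1.41 CPM in Control against 1.17 in K14/hyal1. Hoxb2, which acts with it in the hindbrain, had 0.818 and 1.26 CPM, and Hoxa4, a gene of the cervical vertebrae, 1.18 and 0.949 CPM. Hoxb4, known for expanding blood stem cells, had 1.55 CPM in each library. Hoxd3 and Hoxd4, which shape the first vertebrae, had 0.137 and 0.861 CPM in Control and 0.127 and 0.750 CPM in K14/hyal1. Hoxd8 had 1.13 and 1.45 CPM. Hoxb8, which has a role in haematopoietic cells, had 0.164 CPM in Control (10 estimated reads) and 0.103 CPM in K14/hyal1 (3 estimated reads). Of HoxC, Hoxc4 had 4 estimated reads in Control and 1 in K14/hyal1, and Hoxc6 had 0 and 4. The last 5 members, Hoxc5, Hoxc8, Hoxc9, Hoxc10 and Hoxc13, were at or under 3 reads in both libraries, and Hoxc13, the hair and nail gene, had 0 reads in each.

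Summed by cluster, HoxA and HoxB were higher in K14/hyal1 in CPM and HoxD was lower, and the direction of HoxB rested on Hoxb13. HoxA summed to 92.1 CPM in Control against 118 in K14/hyal1, a ratio of 1.28 (1.23 to 1.33). HoxB summed to 180 and 234 CPM, a ratio of 1.30 (1.27 to 1.34), which became 0.801 without Hoxb13. HoxD summed to 106 and 99.5 CPM, a ratio of 0.942 (0.901 to 0.984), which became 0.791 without Hoxd13. HoxC had a ratio of 1.46 (0.550 to 3.69), not distinguishable from 1 at its depth. Over all 35 genes the sum was 378 CPM in Control against 452 in K14/hyal1, a ratio of 1.2 (1.17 to 1.22), and 1.07 (1.04 to 1.10) without Hoxb13. Relative to the median gene, these ratios were 1.09 for HoxA, 1.11 for HoxB and 0.801 for HoxD. For all HOX genes the value was 1.02, so their sum differed about as much as the median gene, and it was 0.907 without Hoxb13.

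By paralogue class the ratio was higher at higher numbers. It was 0.989 (0.892 to 1.10) for numbers 1 to 4, 1.01 (0.924 to 1.10) for 5 to 8, 1.18 (1.11 to 1.25) for 9 and 10, and 1.23 (1.20 to 1.26) for 11 to 13. The last value was 1.04 without Hoxb13, and the one before it 0.982 without its most abundant member. By single number there was no steady rise. The ratio was 0.778 (0.619 to 0.972) for number 6 and 1.19 (1.03 to 1.36) for 7. Within the highest class it was 0.896 (0.816 to 0.984) for 11, 0.992 (0.809 to 1.21) for 12 and 1.27 (1.24 to 1.30) for 13. Gene by gene, the rank correlation of paralogue number with the log2 ratio was 0.27 over the 15 members past the filter.

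The deposited table lists transcripts, and the 73 HOX transcript rows show which ones carried a gene's difference. Rows are numbered in the order of the table. For Hoxa10, row 2 had 5.78 CPM in Control against 14 in K14/hyal1, a ratio of 2.42, while row 1 had a ratio of 0.9, row 4 of 1.13, and row 3 had 1.25 and 0.370 CPM. For Hoxa9, the most abundant row 1 had 9.77 and 18.8 CPM, a ratio of 1.93, and row 5 had 2.70 and 2.71 CPM. Both rows of Hoxb9 (0.685 and 0.736) and both rows of Hoxd11 (0.625 and 0.769) were below 1. Hoxa13 had 27.9 and 33.7 CPM in row 1, and its other 5 rows had 0.333 to 0.403 CPM in Control and at most 0.0789 CPM in K14/hyal1. Splitting reads between transcripts of a gene is an estimate, so single rows are less certain than their sum, and these rows were chosen after their values were seen.

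**Figure D3:**
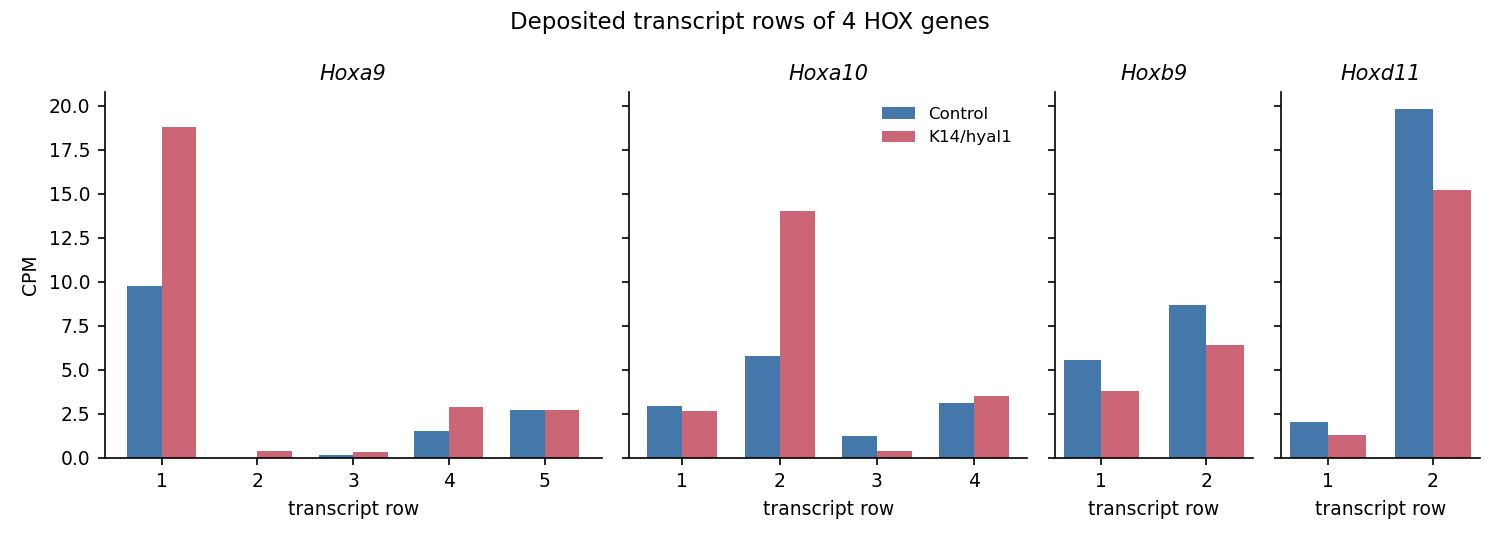
CPM of each deposited transcript row of Hoxa9, Hoxa10, Hoxb9 and Hoxd11, with a blue bar for the Control library and a red bar for the K14/hyal1 library. The difference of Hoxa10 is in row 2 (5.78 and 14) and most of that of Hoxa9 in row 1 (9.77 and 18.8), while both rows of Hoxb9 and of Hoxd11 are lower in K14/hyal1.

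Many HOX transcripts share bases with other transcripts of their cluster. Hoxa11 shares 800 exonic bases with Hoxa11os, which is transcribed from the opposite strand, and Hoxb3 shares 2250 with Hoxb3os. Hoxa7 shares 586 with Hoxaas3, and Hoxd3 and Hoxd4 share 388 on the same strand. Hoxd11 and Hoxd10, both lower in K14/hyal1, share 455 and 104 bases with Gm28309, also on the same strand. The library kit marks strand, but the sources used here do not say whether the counting used it. Strand cannot separate pairs on the same strand in any case. Reads of all such pairs may therefore have been exchanged. Hoxa11os had 59.1 CPM in Control against 52.6 in K14/hyal1, a ratio of 0.890 (0.838 to 0.945), opposite in direction to Hoxa11.

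Of 20 noncoding and neighbouring genes of the clusters in the table, 9 passed the filter. Where 3.75% of all genes past it were at least 2-fold higher and 1.54% lower, 0 of these 9 were either. Their median log2 ratio was 0.19, near that of all genes. Hottip, a noncoding RNA beside Hoxa13 that in human cells helps to keep the posterior HOXA genes active, had 12.4 CPM in Control against 17.8 in K14/hyal1, 1.44-fold higher (1.28 to 1.61). Evx2, the homeobox gene beyond Hoxd13, had 7.76 and 6.37 CPM, a ratio of 0.822 (0.690 to 0.976), the lowest of the 9 on the log2 scale at -0.25. Snx10, a sorting nexin gene that flanks HoxA, had the highest, 0.55.

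In the lists of HOX cofactors and Polycomb genes, no gene past the filter differed by 2-fold. Of 6 HOX cofactor genes past the filter, 0 differed by 2-fold and the median log2 ratio was 0.01. Pbx2 was the highest, with 10.1 CPM in Control against 13.9 in K14/hyal1, and Meis1 the lowest, with 16.8 and 15.6 CPM. Of 22 Polycomb genes, 0 differed by 2-fold and the median was 0.08, from -0.71 for Scmh1 to 0.55 for Mtf2, which recruits the Polycomb complex PRC2 to CG-rich DNA.

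In the list of Trithorax genes and H3K27 demethylases, 3 of 16 were at least 2-fold lower in K14/hyal1 and 0 were higher, with a median of -0.16. Over all genes past the filter the shares were 1.54% lower and 3.75% higher. Kdm6b, which removes the Polycomb mark from histone H3, had 26.8 CPM in Control against 6.19 in K14/hyal1, 4.33-fold lower (3.70 to 5.07). Setd1b, a methyltransferase for H3K4, had 26.4 and 7.89 CPM, 3.34-fold lower (2.91 to 3.86). Kmt2d, which marks enhancers, had 167 and 66.6 CPM, 2.51-fold lower (2.39 to 2.63). Kmt2b was just short of 2-fold lower, with 33.6 and 16.5 CPM and a log2 ratio of -0.99. Dpy30, a small shared subunit of these complexes, was the highest, with 3.32 and 7.44 CPM and a log2 ratio of 0.97. Log2 ratios tended to be lower in GC-rich genes, with medians of 0.285 in the fifth of genes with the least GC and 0.086 in the fifth with the most. With that trend taken off, the log2 ratio was -1.76 for Kdm6b, -1.42 for Setd1b and -1.21 for Kmt2d.

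Signals that set HOX expression in the embryo were also listed. Of 14 past the filter, 1 was at least 2-fold higher and 0 were lower, against 3.75% and 1.54% of all genes. In a list this short, a count of 1 is close to that share. The gene was Bmp4, a growth factor of the gut mesenchyme, with 8.94 CPM in Control against 19.7 in K14/hyal1 (2.21-fold, 1.96 to 2.49). Cdx1, a caudal-type homeobox gene of the intestinal epithelium that binds HOX regulatory DNA, had 59.9 and 49.2 CPM and the lowest log2 ratio, -0.28. Its relative Cdx2 had 4.37 and 3.58 CPM. The median of the 14 was 0.14.

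Genes of colon epithelium summed to 1527 CPM in Control and 1084 in K14/hyal1, while the genes of other gut regions found in the table were low. Of 7 colon and hindgut genes past the filter, 1 was at least 2-fold lower in K14/hyal1 and 0 were higher, with a median log2 ratio of -0.47. The shares of all genes were 1.54% and 3.75%. The goblet cell gene Retnlb had 0 reads in each library. Slc26a3, the chloride and bicarbonate exchanger of the colon surface, had 603 CPM in Control against 241 in K14/hyal1, 2.51-fold lower (2.44 to 2.57). Car1, a carbonic anhydrase of the large intestine, was the highest on the log2 scale at 0.46. Of 19 small intestine, stomach and foregut genes listed, those not in the table have no value and cannot be read as absent. The 10 in the table all lay under the filter. Their summed level was 3.58 CPM in Control against 2.69 in K14/hyal1, Pdx1, the homeobox gene of the duodenum and pancreas, had 0 reads in each, and the highest was Fabp2 with 1.13 and 1.41 CPM.

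Of 16 transcription factor genes of gut mesenchyme past the filter, 2 differed by 2-fold, both higher in K14/hyal1, with a median log2 ratio of 0.24. The share of all genes at least 2-fold higher was 3.75%. Prrx1, a homeobox gene of fibroblasts, had 1.34 CPM in Control against 7.34 in K14/hyal1, 5.47-fold higher (4.22 to 7.15). Tcf21, which marks fibroblast lineages, had 4.52 and 13.9 CPM, 3.07-fold higher (2.62 to 3.59). Hlx, a homeobox gene of the visceral mesenchyme, had the lowest log2 ratio, -0.66. Beside these stand the fibroblast markers, 8 of 10 of which were at least 2-fold higher with a median of 1.56, where the HOX median was 0.02. The 9 smooth muscle markers and the 9 epithelium markers had medians of 0.20 and 0.13, with 0 of either list past 2-fold.

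**Figure D4:**
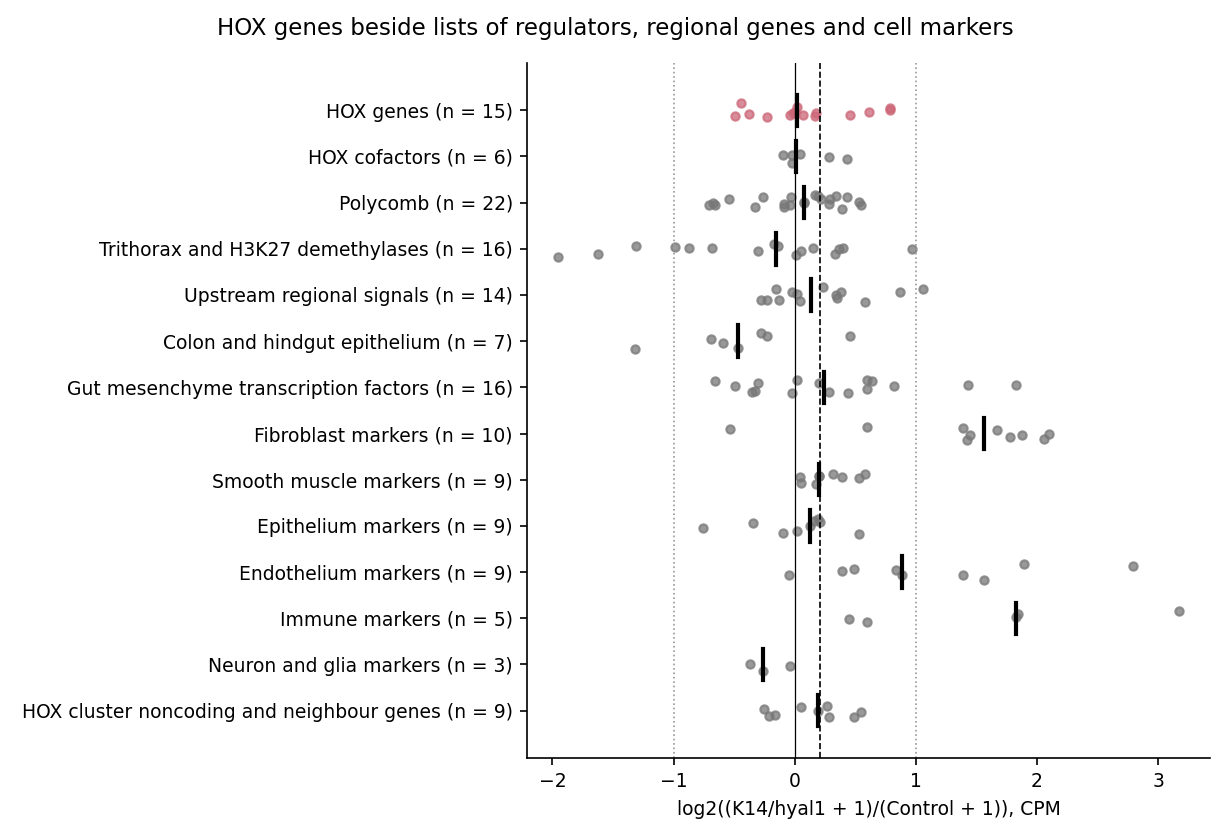
Difference between the libraries as log2((K14/hyal1 + 1)/(Control + 1)) in CPM, with a point for each gene past the level filter in each list and a black bar at the median of the list. The solid line marks 0, the dashed line the median of all genes (0.21) and the dotted lines a 2-fold difference. HOX genes (red) lie between -0.49 and 0.79, fibroblast and immune markers have medians of 1.56 and 1.83, and sublingual-type gland markers, with a median of -6.09, lie outside the axis and are not drawn.

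The authors' deposited table of gene comparisons lists 17 of the HOX members. In the authors' deposited table, 0 of the 17 had a false discovery rate under 0.05 and 1 had an unadjusted p-value under 0.05, against 359 of its 15869 rows (2.26%) with a false discovery rate under 0.05. That gene was Hoxb13, with a ratio of 1.38, p = 0.00213 and a false discovery rate of 0.0805 in the authors' deposited table. The next, Hoxa9, had p = 0.0838 and a false discovery rate of 0.880 in the authors' deposited table. The share of all rows given above is by false discovery rate only. The same share by unadjusted p-value was not counted, so the 1 HOX gene picked out by it has no background here. It cannot be read as particular to HOX genes. The sources used here do not give how p-values were obtained from 1 library per group, and such p-values do not measure the spread between mice.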

How the data were processed

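RNA was extracted with a PureLink kit and libraries were made with a stranded TruSeq mRNA kit for Illumina HiSeq, per the labels' protocols. The submitters' processing notes name Partek and mm10; for the aligner and the counting rule, not given in the sources used here, nothing is assumed. The authors' deposited table of normalized counts has 72178 transcript rows. Its unit is not named and was taken as CPM, because low deposited values are multiples of a constant step per library. Within 0.1 of a whole number of reads lay 81.6% of gene values in Control and 82.9% in K14/hyal1, so reads are estimates and no count test was run. An offset of 0.0001 was removed and rows were summed per symbol. The authors' deposited gene table gives a CPM mean, a ratio, p-values and false discovery rates, and the deposited columns of total counts and the other tables were not used. There were 0 columns of other samples.

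The level filter was the median CPM of the 27125 symbols above 0, the pseudocount 1, and a difference was counted at 2-fold. HOX members and the 15 other lists were chosen with earlier results of these data known. Named genes were all HOX members over the floor, and in each other list the members past 2-fold and the highest and lowest; genes added to these are values of the same lists, such as Cdx2, Fabp2, Pdx1 and Hoxa11os, and were chosen after their values were seen. Some genes that this selects are not reported here by name, though sums and counts include them. Also tried were 3 scalings (TMM, the median gene, and library totals that leave out the 20 most abundant genes), other filters, pseudocounts and fold thresholds, single transcript rows, and leaving out a member. Removal of GC or length trends (running median of 501 genes) was added after the data were seen. Steps were tested on simulated data. Transcript lengths and coordinates are from GENCODE M21, start windows from RefSeq. The tools were scipy 1.17.1, numpy 2.4.6, pandas 2.3.3 and matplotlib 3.10.9 under Python 3.11.15.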

Additional observations from a re-analysis of the deposited data

How the results depend on the processing

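The count of HOX genes past the threshold and higher, 0 at 2-fold, was 3 when the threshold was 1.5-fold, and 1 at 2-fold (Hoxa10, log2 ratio 1.15) from the most abundant transcript row. The median log2 ratio was -0.18 after scaling to the median gene. With the 3 scalings in the order median gene, TMM, and library totals that leave out the 20 most abundant genes, the summed ratio was 1.09, 1.12 and 1.14 for HoxA, 1.11, 1.15 and 1.16 for HoxB, and 0.801, 0.827 and 0.840 for HoxD. For paralogues 1 to 4 it was 0.841, 0.868 and 0.882, for 5 to 8 it was 0.859, 0.887 and 0.901, for 9 and 10 it was 1.0, 1.03 and 1.05, and for 11 to 13 it was 1.05, 1.08 and 1.10. These scalings took 0.23, 0.19 and 0.17 off the log2 of a plain ratio, and less off log2 ratios with the pseudocount. Without the most abundant member the ratio was 1.35 for HoxA, 0.801 for HoxB, 0.791 for HoxD, 0.982 for paralogues 9 and 10, and 1.04 for 11 to 13. From the most abundant transcript row of each gene it was 1.38 for HoxA and 1.27 for paralogues 9 and 10. Of the 15 members past the filter, 8 kept the sign of the log2 ratio under the scalings, trend corrections and single transcript rows (Hoxa6, Hoxa9, Hoxa10, Hoxa11, Hoxb9, Hoxb13, Hoxd10 and Hoxd11). No paired analysis was possible because each group has 1 library, and no library could be left out. The K14/hyal1 library is the shallower, and at its depth 3 reads amount to 0.103 CPM, which limits the HoxC genes, Hoxb8 and Hoxd3. The values cannot separate genotype from mouse, dissection or library.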
